A study of Mus musculus with 11 samples.

Results

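The 7 genes described here are 6 ubiquitin ligases of striated muscle, Fbxo32, Fbxo30, Fbxo40, Trim63, Trim55 and Trim54, and Mstn, which encodes myostatin. They were chosen as genes of muscle wasting, with earlier results of these data known. Their GENCODE symbols were looked up among the 55487 gene identifiers of the count table. All 7 were found, and all 7 were among the 23779 genes that passed the filter on low counts.

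In muscle, ligases attach chains of ubiquitin to proteins and so mark them for the proteasome. Atrogin-1 (Fbxo32), MUSA1 (Fbxo30) and FBXO40 are F-box proteins, which pick substrates for ligase complexes built on Skp1 and Cul1. MuRF1 (Trim63), MuRF2 (Trim55) and MuRF3 (Trim54) are RING ligases that sit on the sarcomere and on microtubules. FOXO transcription factors, which insulin and IGF-1 signalling through Akt holds out of the nucleus, switch on atrogin-1 and MuRF1 when skeletal muscle wastes. Myostatin is a secreted member of the TGF-beta family that limits muscle growth through activin type II receptors and SMAD2 and SMAD3, and it is made mostly in skeletal muscle.

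RNA was sequenced from hearts of female C57BL/6NTac mice that entered the study at 8 weeks of age and stayed on their diet for 24 weeks. In 3 libraries the mice had the obesogenic diet and, after 16 weeks of it, gavage with a senolytic cocktail in 10% PEG400, made up of 50 mg/kg quercetin and 5 mg/kg dasatinib (treated obese hearts). In 4 libraries they had the same diet and gavage with 10% PEG400 alone (obese hearts), and in 4 libraries a control diet. The obesogenic diet joined a feed with 60.3% of its energy from fat to sweetened condensed milk, while the control diet took 10.4% of its energy from fat. Dasatinib is a kinase inhibitor and quercetin a flavonoid, used together to remove senescent cells. The labels do not tell if mice on the control diet received any gavage, so diet and gavage cannot be told apart. Nor do they tell if 1 library is 1 mouse, and the p-values therefore cover only the spread between these libraries, part of which may be technical.

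Library totals were 64.2 to 72.3 M (mega) counts in treated obese hearts, 52.7 to 67.2 M in obese hearts and 73.1 to 103.3 M in control-diet hearts. Mitochondrial-chromosome genes took 17.8 to 22.4% of counts in treated obese hearts, 21.4 to 24.5% in obese hearts and 28.2 to 32.3% in control-diet hearts. Genes annotated as sense-intronic or TEC, called the intronic share here, took 0.509 to 0.671%, 0.663 to 0.811% and 0.286 to 0.590% of counts in those groups in that order. The 7 general cardiomyocyte markers were abundant in all libraries, with summed levels in CPM, the count scaled by the library's TMM-adjusted total, of 28131 to 33270 in treated obese hearts, 22536 to 34153 in obese hearts and 28400 to 40706 in control-diet hearts. Of these, 4 (Myl3, Pln, Myl2 and Tnnt2) were lower in obese than in control-diet hearts. Atrial myocyte markers were high in 3 libraries: their summed level was 2712 CPM in treated replicate 2, 5633 CPM in treated replicate 3 and 2116 CPM in obese replicate 3. It was 47.2 CPM in treated replicate 1, 17.2 to 199.1 CPM in the other obese hearts and 32.6 to 97.9 CPM in control-diet hearts. Of 5 adipocyte markers tested, 4 rose in obese against control-diet hearts, with summed levels of 0.695 to 9.13 CPM in treated obese hearts, 0.325 to 7.41 CPM in obese hearts and 0.0991 to 0.265 CPM in control-diet hearts. Of 5 endothelial markers 2 fell, with summed levels of 549 to 588 CPM in treated obese hearts, 547 to 653 CPM in obese hearts and 736 to 866 CPM in control-diet hearts. Of 5 lymphocyte markers 2 fell, with summed levels of 1.79 to 2.65 CPM in treated obese hearts, 1.37 to 2.86 CPM in obese hearts and 4.59 to 7.16 CPM in control-diet hearts. The part of adipocytes, endothelial cells and lymphocytes in the differences given for the ligases was not tested. In RNA of heart tissue with many cell types, fewer cells of a type and less RNA per cell cannot be told apart.

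The sequence before the start site of a ligase gene is where FOXO factors and the glucocorticoid receptor are known to act on MuRF1. RefSeq windows (GRCm38.p6), from 250 bases before to 50 after a start site, were matched for 5 of the 7 genes, with 6 windows because Fbxo40 has a pair. Fbxo32 and Trim55 were not matched. Windows are printed for Trim63, Trim54 and Fbxo40, the ligases whose upstream letters matched a searched motif, and for Mstn as a gene without a match. Capitals mark the FOXO core, which is spelled TGTTTAC, the arm of the glucocorticoid receptor element, which is spelled TGTTCT or, where it lies on the other strand, AGAACA, and the E-box that muscle basic helix-loop-helix factors bind, which is spelled CAGCTG.
Trim63: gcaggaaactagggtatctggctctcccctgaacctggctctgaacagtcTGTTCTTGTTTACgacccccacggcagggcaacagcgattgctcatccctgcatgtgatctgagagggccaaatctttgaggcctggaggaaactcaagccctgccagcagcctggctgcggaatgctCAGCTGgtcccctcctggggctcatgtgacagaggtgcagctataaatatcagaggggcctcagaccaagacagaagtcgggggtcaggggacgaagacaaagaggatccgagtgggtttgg
Trim54: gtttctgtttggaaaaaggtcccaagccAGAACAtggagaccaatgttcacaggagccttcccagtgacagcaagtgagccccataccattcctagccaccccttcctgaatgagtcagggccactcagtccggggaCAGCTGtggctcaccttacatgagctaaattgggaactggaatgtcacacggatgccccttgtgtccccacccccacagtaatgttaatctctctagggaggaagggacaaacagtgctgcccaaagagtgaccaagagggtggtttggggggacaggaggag
Fbxo40: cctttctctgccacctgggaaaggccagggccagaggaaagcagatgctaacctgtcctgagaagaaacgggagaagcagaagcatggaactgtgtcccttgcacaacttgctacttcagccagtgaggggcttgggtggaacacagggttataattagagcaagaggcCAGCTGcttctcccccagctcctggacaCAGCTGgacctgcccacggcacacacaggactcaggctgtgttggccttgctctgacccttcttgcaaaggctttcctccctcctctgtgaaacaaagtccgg
Mstn: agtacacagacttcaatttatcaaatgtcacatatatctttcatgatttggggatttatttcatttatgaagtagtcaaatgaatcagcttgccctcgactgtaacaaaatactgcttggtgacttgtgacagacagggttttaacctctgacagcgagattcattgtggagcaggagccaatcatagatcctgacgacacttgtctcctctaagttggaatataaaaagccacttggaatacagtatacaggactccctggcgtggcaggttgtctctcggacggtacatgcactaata

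The Trim63 window lies at chr4:134314870-134315169 on the plus strand. In it the receptor arm began 200 bases before the start site and ran directly into the FOXO core at 194 bases, and the E-box stood at 72 bases. The Trim54 window at chr5:31116362-31116661, plus strand, held the receptor arm on the other strand at 222 bases and the E-box at 113 bases. The Fbxo40 window printed, chr16:36990418-36990717 on the minus strand, held the E-box at 81 and at 53 bases, and its other window at chr16:36979087-36979386 held the receptor arm on the other strand at 176 bases and the E-box at 89 bases. No match was found in the windows of Fbxo30 and of Mstn, the Mstn window being chr1:53061390-53061689 on the plus strand. Over all 32851 windows of that length, searched on both strands, the FOXO core was found in 3.65%, the receptor arm in 19.0% and the E-box in 16.3%. A match is a description of letters and not a bound site.

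Set out per kilobase of exon, the scale on which genes can be compared with each other, the order of the 7 genes was not the same in the 3 groups. MuRF3 (Trim54) stood highest in each, at 56.5 ± 10.2 CPM per kilobase in treated obese hearts (SD, n = 3), 44.2 ± 9.18 in obese hearts (SD, n = 4) and 88.6 ± 10.1 in control-diet hearts (SD, n = 4). In control-diet hearts it was followed by Fbxo40 (38.8) and Fbxo32 (33.4), whose ranges overlapped, then by Trim63 (20.997) and Trim55 (18.8), whose ranges also overlapped, and then by Fbxo30 (6.83). In obese hearts Trim55 (25.1), Fbxo40 (24.9), Fbxo32 (21.7) and Trim63 (15.5) followed, each overlapping the next. In treated obese hearts the order below Trim54 was Fbxo32 (30.3), Fbxo40 (26.2) and Trim55 (23.9), each overlapping the next, then Trim63 (17.4). Fbxo30 came next in both, at 5.14 CPM per kilobase in treated obese hearts and 4.87 in obese hearts, apart from its neighbours. Mstn was lowest in each group, at 0.291 CPM per kilobase in treated obese hearts, 0.335 in obese hearts and 0.107 in control-diet hearts. Myostatin RNA was thus present at trace level beside the ligases.

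**Figure D1:**
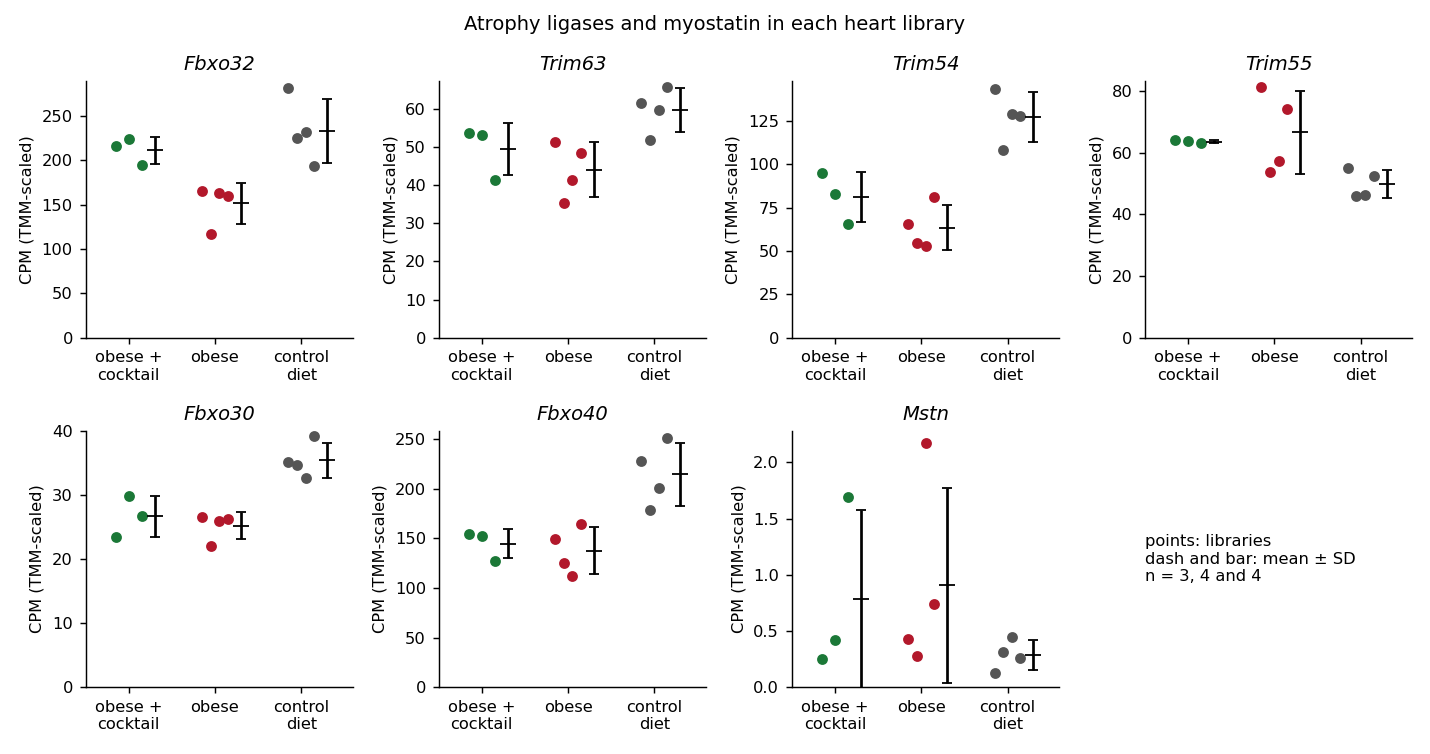
Level of each of the 7 genes in every library, in CPM with TMM-scaled library sizes, for treated obese (obese + cocktail), obese and control-diet hearts. Points are libraries, and bars are the mean and SD (n = 3, 4 and 4), which for Mstn in treated obese hearts ends at the axis. Trim54, Fbxo32, Fbxo30, Fbxo40 and Trim63 have all obese points below all control-diet points, Trim55 is mostly higher in obese hearts, and Mstn is spread by single libraries.

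The first comparison asks how obese hearts differ from control-diet hearts. The level fell for 5 of the 6 ligases and rose for the other, MuRF2 (Trim55), while myostatin did not pass the test. The largest fall was that of MuRF3 (Trim54), to 0.4996 of the control-diet level, and those of Fbxo40, Fbxo32, Fbxo30 and Trim63 were to between 0.642 and 0.737 of it. So 6 of 7 members passed (edgeR's quasi-likelihood test, adjusted p under 0.05), 1 higher and 5 lower, while 30.1% of all 23779 genes passed, 14.4% higher and 15.7% lower. The 5 that fell had groups that did not overlap, as had 28.5% of all genes, 14.7% with obese hearts lower. The median log2 difference was -0.49 over the 7 members and 0.11 over all genes tested. As the members were chosen with earlier results of these data known, these shares describe the 7 genes and do not test them as a set.

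Atrogin-1 (Fbxo32, ENSMUSG00000022358, chr15:58175879-58214932, minus strand, GRCm38) has eIF3f and calcineurin among its reported substrates. Its level was 215.9, 223.5 and 194.2 CPM in treated obese hearts, 165.4, 116.5, 163.6 and 159.7 CPM in obese hearts, and 281.0, 225.3, 231.5 and 193.9 CPM in control-diet hearts. All 4 obese hearts lay below all others, with obese replicate 2 lowest, and the treated obese hearts lay within the range of control-diet hearts. Obese hearts were lower than control-diet hearts by a log2 difference of -0.62 (SE 0.14, adjusted p = 0.00631, edgeR). Treated obese hearts were higher than obese hearts by 0.48 (95% interval 0.15 to 0.81), with an unadjusted p of 0.00729 but an adjusted p of 0.386, so the difference was not called. Groups without overlap, as here, were found for 10.1% of all genes in that comparison, 4.68% with treated obese hearts higher. Against control-diet hearts the treated obese hearts differed by -0.14 (95% interval -0.47 to 0.19, adjusted p = 0.555, edgeR).

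MUSA1 (Fbxo30, ENSMUSG00000047648, chr10:11281330-11298052, plus strand) is a ligase that BMP signalling holds down in skeletal muscle. It measured 23.4, 29.9 and 26.8 CPM in treated obese hearts, 26.6, 22.1, 26.1 and 26.4 CPM in obese hearts, and 35.3, 34.8, 32.8 and 39.3 CPM in control-diet hearts. Both obese groups lay wholly below the control-diet hearts and overlapped each other. The log2 difference was -0.49 for obese against control-diet hearts (SE 0.10, adjusted p = 0.00444, edgeR), -0.41 for treated obese against control-diet hearts (SE 0.11, adjusted p = 0.0298, edgeR) and 0.079 for treated obese against obese hearts (95% interval -0.16 to 0.32).

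FBXO40 (ENSMUSG00000047746, chr16:36963460-36990467, minus strand) targets the insulin receptor substrate IRS1 in skeletal muscle. Its level was 154.3, 152.2 and 127.5 CPM in treated obese hearts, 149.2, 124.8, 112.1 and 164.3 CPM in obese hearts, and 227.3, 178.2, 200.2 and 251.3 CPM in control-diet hearts. Again both obese groups lay below every control-diet heart and overlapped each other. Fbxo40 fell by 0.64 on the log2 scale in obese against control-diet hearts (SE 0.15, adjusted p = 0.00628, edgeR) and by 0.57 in treated obese against control-diet hearts (SE 0.16, adjusted p = 0.0313, edgeR). Treated obese and obese hearts differed by 0.072 (95% interval -0.27 to 0.41).

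MuRF1 (Trim63, ENSMUSG00000028834, chr4:134315120-134329629, plus strand) binds titin at the M-band and has sarcomere proteins among its substrates. It measured 53.7, 53.1 and 41.4 CPM in treated obese hearts, 51.2, 35.3, 41.2 and 48.3 CPM in obese hearts, and 61.4, 51.9, 59.7 and 65.7 CPM in control-diet hearts. Every obese heart lay below every control-diet heart, by a narrow margin between obese replicate 1 and control replicate 2, and the treated obese hearts overlapped both groups. Its fall was the smallest of the 5, with a log2 difference of -0.44 (SE 0.13, adjusted p = 0.0245, edgeR). That call did not hold without control replicate 1 (adjusted p = 0.0552), control replicate 4 (0.0663), obese replicate 2 (0.0675) or obese replicate 3 (0.0551), nor with upper-quartile scaling (0.0583). Treated obese hearts differed from obese hearts by 0.17 (95% interval -0.14 to 0.47) and from control-diet hearts by -0.27 (95% interval -0.58 to 0.04), and neither was called.

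MuRF3 (Trim54, ENSMUSG00000062077, chr5:31116712-31137630, plus strand) is known for its association with microtubules. Its level was 94.8, 83.1 and 65.6 CPM in treated obese hearts, 65.7, 54.5, 52.7 and 81.3 CPM in obese hearts, and 143.4, 108.2, 129.3 and 127.9 CPM in control-diet hearts. No obese or treated obese heart reached the lowest control-diet heart. The log2 difference was -1.001 in obese against control-diet hearts (SE 0.16, adjusted p = 0.000824, edgeR) and -0.65 in treated obese against control-diet hearts (SE 0.17, adjusted p = 0.0243, edgeR). Treated obese hearts stood 0.35 above obese hearts on the log2 scale (95% interval -0.01 to 0.71), with an unadjusted p of 0.0545 and an adjusted p of 0.499.

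MuRF2 (Trim55, ENSMUSG00000060913, chr3:19644474-19692421, plus strand) shares titin binding with MuRF1. It measured 64.0, 63.7 and 63.2 CPM in treated obese hearts, 81.5, 53.6, 57.3 and 74.1 CPM in obese hearts, and 55.2, 45.9, 46.2 and 52.3 CPM in control-diet hearts. The treated obese hearts were close together and all above control-diet hearts, while obese replicate 2 lay within the control-diet range. Trim55 rose in obese against control-diet hearts by 0.42 on the log2 scale (SE 0.13, adjusted p = 0.0290, edgeR). The rise was not called without control replicate 2 (adjusted p = 0.0682), 3 (0.0887) or 4 (0.0578), nor without obese replicate 1 (0.0916) or 4 (0.0825). Treated obese hearts differed from control-diet hearts by 0.35 (95% interval 0.05 to 0.65, adjusted p = 0.103, edgeR) and from obese hearts by -0.065 (95% interval -0.37 to 0.24).

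Genes that share genomic bases with a ligase could take its reads. For antisense genes this depends on strand, and no source used here tells if counting used it. The overlapping gene of Trim55 lies on the same strand, so the strand setting would not settle that case. The antisense gene Gm15943 overlaps Fbxo32, and its level was 6.42 to 14.0% of that of Fbxo32 in treated obese hearts, 7.76 to 17.2% in obese hearts and 4.84 to 8.14% in control-diet hearts. It was not called between obese and control-diet hearts (log2 difference 0.37, adjusted p = 0.399, edgeR). BC002189, a sense-intronic gene within Trim55, was at 8.23 to 9.92% of the level of Trim55 in treated obese hearts, 9.89 to 12.4% in obese hearts and 5.87 to 9.68% in control-diet hearts. It was higher in obese than in control-diet hearts by 0.92 (adjusted p = 0.00279, edgeR), so part of the Trim55 value is uncertain. Gm15469, antisense to Trim54, was at or below 3.76% of the level of Trim54 in all libraries.

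Ratios within a library do not depend on how libraries are scaled, so the MuRF genes and atrogin-1 were also set against MuRF1. The log2 ratio of Trim55 to Trim63 was 0.26, 0.26 and 0.61 in treated obese hearts, 0.67, 0.60, 0.47 and 0.62 in obese hearts, and -0.15, -0.18, -0.37 and -0.33 in control-diet hearts. The ratio was above 0 in every heart on the obesogenic diet and below 0 in every control-diet heart; as it is not taken per length, it compares groups and not the levels of the genes. The difference of obese against control-diet hearts was 0.85 (2-sided exact permutation test, p = 0.0286, adjusted p = 0.0429 over 3 ratios), and 0.0286 is the smallest p that the 70 arrangements allow. The log2 ratio of Trim54 to Trim63 was 0.82, 0.65 and 0.66 in treated obese hearts, 0.36, 0.63, 0.35 and 0.75 in obese hearts, and 1.22, 1.06, 1.11 and 0.96 in control-diet hearts. Here every control-diet heart was above every other heart, with a difference of -0.57 between obese and control-diet hearts (exact permutation p = 0.0286, adjusted p = 0.0429). Without control replicate 1 the adjusted p of both ratios was 0.0857. The ratio of Fbxo32 to Trim63 averaged 2.10 ± 0.11 in treated obese hearts (SD, n = 3), 1.78 ± 0.14 in obese hearts (SD, n = 4) and 1.96 ± 0.28 in control-diet hearts (SD, n = 4), and obese and control-diet hearts did not differ beyond their spread (difference -0.18, exact permutation p = 0.343).

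**Figure D2:**
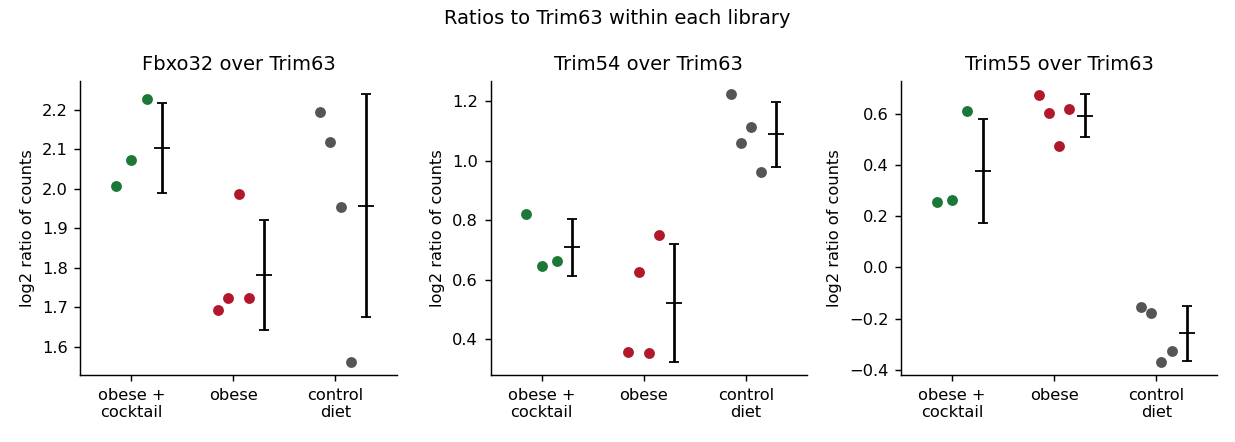
Log2 ratio of the counts of Fbxo32, Trim54 and Trim55 to those of Trim63 within each library, for treated obese, obese and control-diet hearts. Points are libraries, and bars are the mean and SD (n = 3, 4 and 4). The Trim55 ratio is above 0 in all hearts on the obesogenic diet and below 0 in all control-diet hearts, the Trim54 ratio is highest in control-diet hearts, and the Fbxo32 ratios overlap.

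Myostatin (Mstn, ENSMUSG00000026100, chr1:53061640-53068079, plus strand) was counted 17, 33 and 139 times in treated obese hearts, 25, 18, 136 and 51 times in obese hearts, and 9, 22, 40 and 17 times in control-diet hearts. That is 0.251, 0.418 and 1.69 CPM in treated obese hearts, 0.428, 0.283, 2.17 and 0.743 CPM in obese hearts, and 0.127, 0.316, 0.449 and 0.265 CPM in control-diet hearts. Treated replicate 3 and obese replicate 3 were highest, and the 3 groups overlapped. The log2 difference of obese against control-diet hearts was 1.63 (SE 0.72, unadjusted p = 0.0441, adjusted p = 0.107, edgeR), and it was 0.73 without obese replicate 3. For treated obese against obese hearts it was -0.19 (95% interval -1.81 to 1.42) with all libraries, 0.70 without obese replicate 3 and -1.43 without treated replicate 3. For treated obese against control-diet hearts it was 1.44 (95% interval -0.23 to 3.10), and 0.20 without treated replicate 3.

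The libraries with most myostatin RNA were also high in markers of atrial myocytes. Bmp10, a BMP ligand of atrial myocytes that was singled out after its values were seen, measured 1.83, 5.42 and 1389 CPM in treated obese hearts, 1.16, 1.04, 401.6 and 32.6 CPM in obese hearts, and 0.170, 0.158, 3.66 and 23.2 CPM in control-diet hearts. Myl7, the atrial regulatory myosin light chain, was at 3.09, 621.6 and 653.3 CPM in treated obese hearts, 0.394, 17.2, 351.9 and 31.8 CPM in obese hearts, and 0.0283 to 5.52 CPM in control-diet hearts. Treated replicate 2 was as high as treated replicate 3 in Myl7 but not in Bmp10 or Mstn. Of the 12 skeletal muscle markers, Myh4 and Myog were at 0 counts in every library and Myh1 and Myh2 did not exceed 0.125 CPM. In treated replicate 3 and obese replicate 3, Atp2a1 was at 3.10 and 2.41 CPM and Pvalb at 0.792 and 1.61 CPM. Control-diet hearts did not exceed 1.37 and 0.0785 CPM. These 2 markers did not follow Mstn alone: they were at 3.27 and 0.735 CPM in treated replicate 2, and 0.865 and 1.24 CPM in obese replicate 2. Tnni2 was at 0.366 CPM in treated replicate 3 and 0.144 CPM in obese replicate 3, against 0.255 to 0.827 CPM in control-diet hearts. Mylpf was at 0.256 and 0.224 CPM there, against 0.213 to 0.387 CPM. Of 8 markers tested, 2 were higher and 0 lower in treated obese against control-diet hearts, where 15.8% of all genes were called. In obese against control-diet hearts 0 were higher and 1 lower, where 30.1% of all genes were called. The summed level of the 12 markers was 37.5 to 60.0 CPM in treated obese hearts, 32.5 to 51.2 CPM in obese hearts and 45.1 to 109.2 CPM in control-diet hearts. Most of it was Neb, the giant thin-filament protein nebulin, and the other 11 markers summed to 2.69 to 6.10 CPM in treated obese hearts, 1.94 to 5.42 CPM in obese hearts and 2.11 to 2.82 CPM in control-diet hearts. With the atrial marker score as a covariate the Mstn difference of obese against control-diet hearts was 0.39 (adjusted p = 0.582, edgeR), where it was 1.63 without that covariate.

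**Figure D3:**
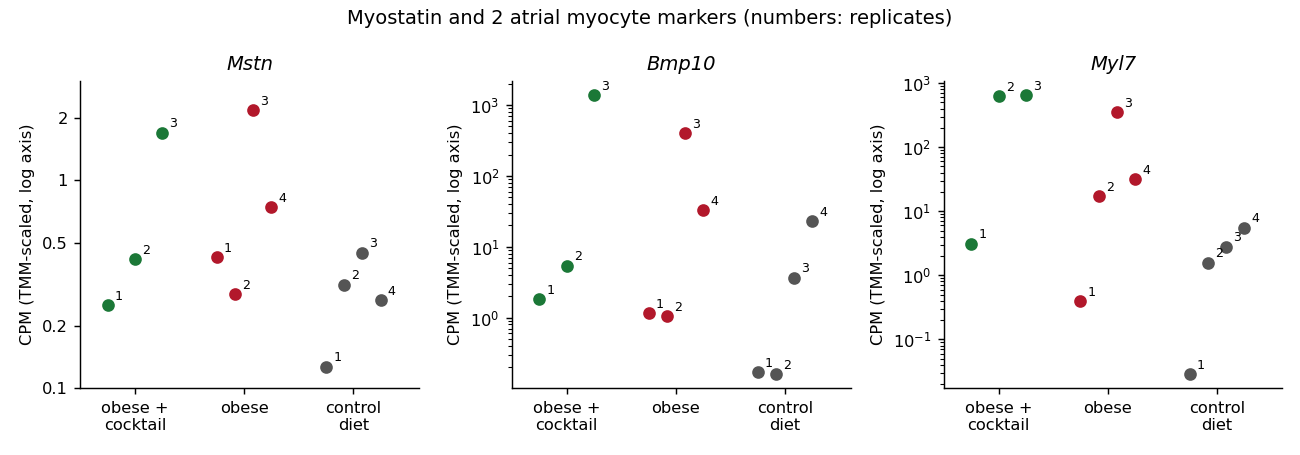
Level of Mstn, Bmp10 and Myl7 in each library, in CPM on log axes, for treated obese, obese and control-diet hearts, with points numbered by replicate. Replicate 3 of the treated obese and of the obese hearts is highest in Mstn and Bmp10, and Myl7 is also high in treated replicate 2.

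The second comparison, treated obese against obese hearts, asks what the cocktail changed in obese hearts. None of the 7 members was called, and none of the 23779 genes was (0% called, edgeR). At an unadjusted p under 0.05 there were 1 of 7 members, Fbxo32, and 2425 genes, which is 10.2% of all genes tested. DESeq2 called 124 genes and limma voom 0, and in both none of them was a member. The median log2 difference was 0.08 over the members and -0.01 over all genes. The last comparison set treated obese against control-diet hearts, a contrast of diet and cocktail together. In it 3 of 7 members passed, Trim54, Fbxo30 and Fbxo40, all lower, where 15.8% of all genes passed, 8.39% lower (edgeR). Those 3 and Trim55, which was not called, had groups that did not overlap, as had 27.9% of all genes. The comparisons share libraries, obese hearts between the first and second and control-diet hearts between the first and the last, so their values are not independent.

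**Figure D4:**
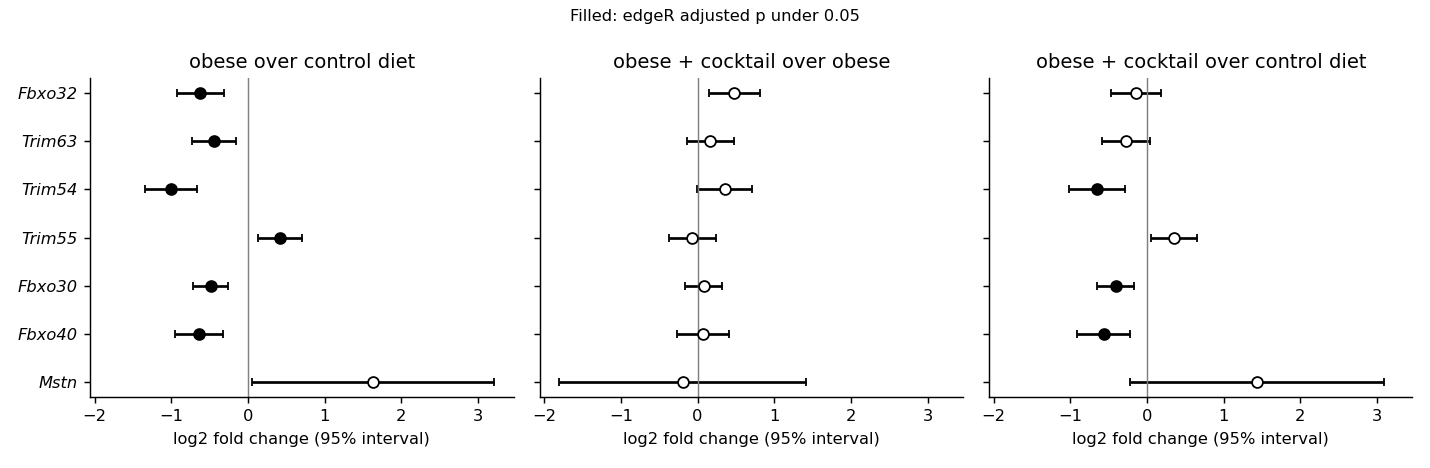
Log2 fold change of each of the 7 genes with its 95% interval, for obese against control diet, treated obese against obese, and treated obese against control diet (edgeR, n = 4, 4 and 3 libraries). Filled points passed an adjusted p of 0.05. In the comparison of obese with control diet 6 are filled, 5 below 0 and Trim55 above, in treated obese against obese none is, and in treated obese against control diet Trim54, Fbxo30 and Fbxo40 are.

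The falls of the ligases depend on how the libraries are put on a common scale. With library totals in place of TMM factors, the median log2 difference of all genes between obese and control-diet hearts moved to 0.53, and with upper-quartile scaling to 0.21. A change of scaling shifts the log2 differences of all genes by nearly the same amount. A member's distance from the median of all genes therefore hardly moves by construction, and it cannot tell which scaling is right. That distance was -0.55 for Trim63 and -1.11 for Trim54, with TMM as with library totals. With library totals, 3 of 7 members were called, Trim54 lower and Trim55 and Mstn higher. Of all 23779 genes 10021 were called in that setting, 9061 higher and 960 lower. The list counts with library totals given below for this comparison stand beside the same numbers. The other members were not called: Fbxo32 was at -0.21 (adjusted p = 0.235), Fbxo40 at -0.21 (0.0802), Fbxo30 at -0.066 (0.651) and Trim63 at -0.018 (0.888, edgeR). The intronic share was lower in every control-diet heart than in every obese heart. A fit with that share as a covariate therefore cannot tell it apart from diet, and calls lost there cannot be assigned to either. In that fit no member was called, and 121 of all genes were. The SE of the Trim63 difference was 0.22, against 0.13 without the covariate. The log2 differences were then -0.58 for Fbxo32, -0.53 for Trim54, -0.34 for Fbxo30, -0.087 for Trim63, -0.085 for Fbxo40 and 0.67 for Trim55 (adjusted p from 0.268 to 0.910, edgeR).

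Genes for ubiquitin and for proteins that handle it were also mostly lower in obese than in control-diet hearts. The list held 19 genes for ubiquitin, its activating and conjugating enzymes, the SCF complex, and Usp14 and Usp19, which remove ubiquitin. Of the 19, 14 fell and none rose, where 15.7% of all genes fell and 14.4% rose. The median log2 difference was -0.49, against 0.11 over all genes. Rps27a, which encodes ubiquitin fused to a ribosomal protein, changed by -0.98 (adjusted p = 0.000445, edgeR). Ube2b, a conjugating enzyme, changed by -1.13 (adjusted p = 0.000465), and Cul1, the scaffold on which F-box ligases are built, by -0.49 (adjusted p = 0.00247, edgeR). Cul1 averaged 44.1 ± 2.93 CPM in treated obese hearts (SD, n = 3), 45.4 ± 1.39 CPM in obese hearts (SD, n = 4) and 63.8 ± 6.37 CPM in control-diet hearts (SD, n = 4). With library totals the count for this list was 2 higher and 4 lower, and with the intronic share as a covariate 0 in either direction. Without the 3 libraries of highest atrial score the median was -0.44, against 0.11 over all genes. In treated obese against control-diet hearts 8 of the 19 fell, where 8.39% of all genes did, with a median of -0.43. In that comparison 1 of the 19 was higher and 1 lower with library totals, where 6911 of all genes were higher and 389 lower. With the intronic covariate 0 of the 19 were called, where 510 of all genes were. Without the 3 libraries of highest atrial score, which leaves 1 treated library, the median was -0.46.

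Of 15 other ligases of muscle, 1 rose and 2 fell in obese against control-diet hearts, which is 20% called where 30.1% of all genes were, with a median of -0.13. Fbxo21 fell by 0.77 (adjusted p = 0.00101) and Nedd4, which ubiquitinates membrane proteins, by 0.73 (adjusted p = 0.00109), while Fbxl22, an F-box protein of the cardiac Z-disc, rose by 0.67 (adjusted p = 0.0246, edgeR). Fbxo25 was at 0.15 (adjusted p = 0.335, edgeR). With library totals 7 of the 15 were higher and 2 lower, and with the intronic covariate 1 was higher.

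Of 16 partners and reported substrates of the MuRF proteins and atrogin-1, 9 fell and none rose in obese against control-diet hearts, which is 56.2% called where 30.1% of all genes were (median -0.48). Eif3f, the translation factor subunit that atrogin-1 targets, changed by -0.75 (adjusted p = 0.000359), Des, the intermediate filament desmin, by -1.03 (adjusted p = 0.000375), Chmp2b by -0.81 (adjusted p = 0.00164) and Myl3, the ventricular essential light chain, by -1.20 (adjusted p = 0.00365, edgeR). The count was 2 higher and 5 lower with library totals, and 0 once the intronic share was a covariate. Without the 3 libraries of highest atrial score the median was -0.43, against 0.11 over all genes. Myh6, Myl2 and Myl3 stand in this list and among the cardiomyocyte markers.

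Among 24 upstream regulators, of which 23 were tested because Myog had no counts, 2 rose and 6 fell in obese against control-diet hearts, which is 34.8% called and near the 30.1% of all genes. Insr, the insulin receptor, changed by -1.004 (adjusted p = 0.000260) and Akt2, a kinase that restrains FOXO factors, by -0.58 (adjusted p = 0.00461). Hdac4, a deacetylase that acts upstream of the ligases in denervated muscle, rose by 1.14 (adjusted p = 0.000540) and Ikbkb, a kinase of the NF-kB pathway, by 0.68 (adjusted p = 0.00214, edgeR). The FOXO genes Foxo1 (-0.15, adjusted p = 0.399) and Foxo3 (-0.38, adjusted p = 0.142), the glucocorticoid-induced Klf15 (-0.20, adjusted p = 0.448) and the glucocorticoid receptor gene Nr3c1 (0.00 to 2 decimals, adjusted p = 0.982, edgeR) were not called. Foxo3 averaged 236 ± 12.4 CPM in treated obese hearts (SD, n = 3), 155 ± 42.6 CPM in obese hearts (SD, n = 4) and 201 ± 30.2 CPM in control-diet hearts (SD, n = 4), and treated obese hearts differed from obese hearts by 0.61 with an unadjusted p of 0.0103 and an adjusted p of 0.393 (edgeR). With library totals the count for this list was 7 higher and 1 lower, and with the intronic covariate 0 in either direction.

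Other genes linked to FOXO factors in muscle wasting had the lowest median of the 6 lists. Of 18, 12 fell and none rose in obese against control-diet hearts, which is 66.7% called where 30.1% of all genes were, with a median of -0.96. Bnip3, a mitophagy receptor, changed by -2.87 (adjusted p = 5.47e-06), Ctsl, a lysosomal protease, by -1.45 (adjusted p = 2.54e-05), Map1lc3b, an autophagosome protein, by -1.40 (adjusted p = 4.69e-05) and Sqstm1, an autophagy receptor, by -1.18 (adjusted p = 6.63e-05, edgeR). The count was 2 higher and 11 lower with library totals, and 6 lower with the intronic share as a covariate. In treated obese against control-diet hearts, where 15.8% of all genes were called, 10 of the 18 fell and 1 rose, which was Irs2 (0.69, adjusted p = 0.00989, edgeR), named after its value was seen. In that comparison 3 of the 18 were higher and 6 lower with library totals, where 6911 of all genes were higher and 389 lower. With the intronic covariate 6 were lower, where 510 of all genes were called. The median there was -0.62 in the main fit, and -0.51 without the 3 libraries of highest atrial score, which leaves 1 treated library. Between treated obese and obese hearts 0 of the 18 were called and 9 had an unadjusted p under 0.05, which is 50% where 10.2% of all genes had one, with a median of 0.37 against -0.01 over all genes.

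In the myostatin and activin pathway, 2 of 20 genes rose and 4 fell in obese against control-diet hearts, a share of 30% that is near the 30.1% of all genes, with a median of 0.03. Wfikkn2, a secreted inhibitor of myostatin, averaged 7.33 ± 0.667 CPM in treated obese hearts (SD, n = 3), 3.999 ± 0.713 CPM in obese hearts (SD, n = 4) and 10.1 ± 1.46 CPM in control-diet hearts (SD, n = 4). It changed by -1.34 in obese against control-diet hearts (adjusted p = 0.000227, edgeR), and the treated obese hearts stood 0.87 above the obese hearts with an adjusted p of 0.253. Of the proteases that release myostatin from its latent complex, Bmp1 rose by 1.14 (adjusted p = 0.000307) and Tll2 by 2.41 (adjusted p = 0.00388), and Furin, which cleaves its precursor, fell by 0.45 (adjusted p = 0.0139, edgeR). The related ligand Gdf11 (-0.01, adjusted p = 0.970) and the receptor Acvr2b (-0.25, adjusted p = 0.214, edgeR) were not called. None of the 20 was called between treated obese and obese hearts, and between obese and control-diet hearts 4 were higher and 1 lower with library totals and none with the intronic covariate.

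**Figure D5:**
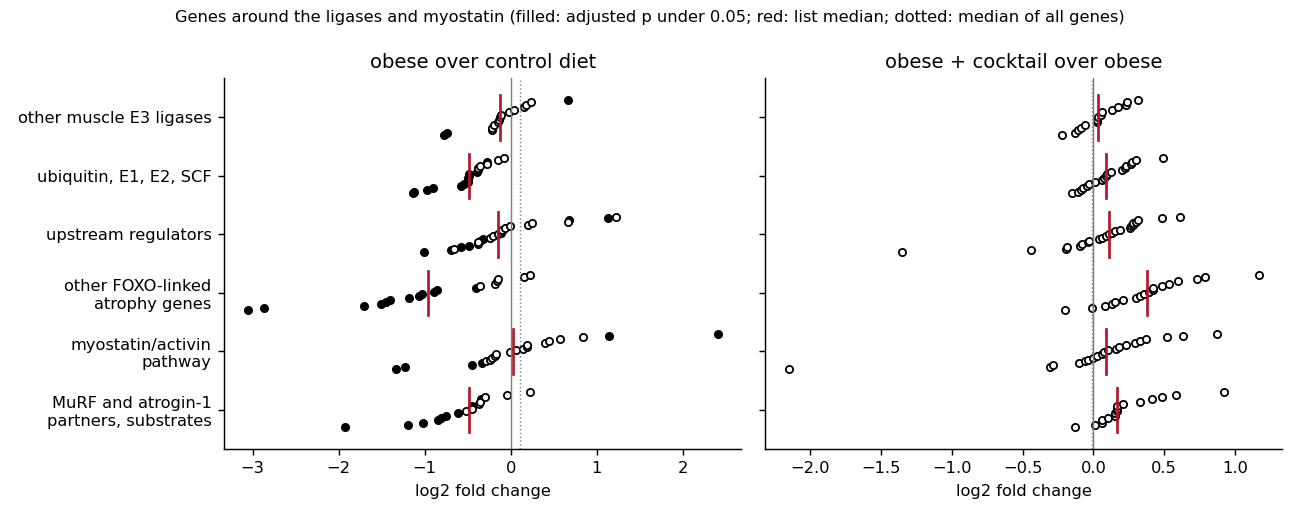
Log2 fold change of every tested gene of the 6 lists around the ligases and myostatin, for obese over control diet (left) and treated obese over obese (right). Each point is a gene, filled where its adjusted p was under 0.05 (edgeR), red bars are list medians and the dotted line is the median of all genes. On the left the filled points of the ubiquitin list (14 of 19), the FOXO-linked list (12 of 18) and the list of partners and substrates (9 of 16) all lie below 0, and on the right no point is filled.

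The genes whose profiles over the 11 libraries were most like a member's were ranked by the mean absolute difference between centred log2 CPM values, over 12670 genes with a mean of at least 1 CPM. For Fbxo40 these were Clybl (0.0454), Akap1 (0.0483) and Fam162a (0.0543), against a median of 0.315 over all genes. Fbxo30 was nearest to Dnttip2 (0.0455), Rchy1 (0.0487) and Snap29 (0.0575), and Trim63 to Mccc2 (0.0560), Ecsit (0.0610) and Eef1d (0.0612). The profile of Trim54 was nearest to Prpf19 (0.0680), Pdk2 (0.0741) and Iba57 (0.0747), and that of Fbxo32 to Mknk2 (0.0868), Sik3 (0.0917) and Cry2 (0.0954). Trim55 was nearest to Syt7 (0.0850), Prkce (0.0851) and Myo18b (0.0900). The nearest profiles to Mstn, Vsig4 (0.470), Slit2 (0.524) and Ttyh1 (0.540), differed from it by several times more than those of any ligase. The measure grows with a gene's own spread, so these larger distances do not by themselves mark an unlike profile. The mean absolute deviation of Mstn was 0.864, against 0.208 to 0.423 for the ligases, and its median over all genes was 0.916. The libraries share depth and composition, so likeness here is a description of profiles.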

How the data were processed

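RNA-seq of hearts was analysed from a deposited table of whole-number counts per Ensembl gene for 11 libraries. Per the submitters' processing notes, the authors' tools were cutadapt, HISAT2 and StringTie and the build was GRCm38. No source used here names the annotation or strand setting, or tells if the counts are reads or estimates from coverage. Symbols and positions came from GENCODE M21, and sequences from RefSeq (GRCm38.p6).

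Genes were filtered with filterByExpr (minimum count 10, minimum total 15). With edgeR 4.0.16 (R 4.3.3), libraries were scaled by TMM and the 3 groups fitted together by a robust quasi-likelihood fit with glmQLFTest. Benjamini-Hochberg adjustment ran over all genes tested in a comparison, at a threshold of 0.05. The standard error is the absolute log2 fold change over the square root of F. Ratios within a library used counts plus 1 and a 2-sided exact permutation test. The fit was tested on simulated data for obese against control-diet hearts, with 50 genes changed at each fold. It recovered 8 of 50 at 1.5-fold, 37 at 2-fold, 47 at 4-fold and 49 at 8-fold, with 4 false calls among 145. Changes near 1.5-fold were thus mostly missed in that setting, where far fewer genes were called than in the data. Treated obese against obese hearts was not simulated. Libraries of a group differed by far more than sampling noise (chi-square per degree of freedom 30.8 to 123), and none was treated as a repeat.

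All 7 members are named in each comparison. From each pathway list up to 4 called genes with the smallest p are named, and Foxo1, Foxo3, Klf15, Nr3c1, Gdf11, Acvr2b, Fbxo21 and Fbxo25 always. A gene that this rule takes is not reported here. The members, lists and alternatives were chosen with earlier results of these data known. Alternatives were other scalings, filters, covariates and tools (DESeq2 1.42.0, limma 3.58.1 voom), a replicate block, and leaving out libraries. Recounting the lists under some of these was added after the data were seen.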

Additional observations from a re-analysis of the deposited data

Results flagged for a closer look

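In 2 of 14 sets of 4 libraries, 1 library stood apart from the others by Dixon's test. Chance gives this in about 1 of 20 sets. The gap over range was taken on log2 CPM. Fbxo32 was at 116.5 CPM in obese replicate 2, below the other obese hearts at 159.7 to 165.4 CPM (gap over range 0.901). Fbxo30 was at 22.1 CPM in the same library, below the other obese hearts at 26.1 to 26.6 CPM (0.886).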

How the results depend on the processing

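For obese against control-diet hearts, 6 of 7 members were called by edgeR. The count was 3 with library totals only, 0 with the intronic covariate and 4 to 6 when a library was left out. For treated obese against control-diet hearts it was 3, against 1 with library totals (Trim55), 1 with the atrial marker score as a covariate, 0 with the intronic covariate, 2 with a replicate block or no low-count filter (Fbxo30 lost), 4 with protein-coding genes only or the 2 groups alone (Trim55 gained), and 0 to 3 when a library was left out: 0 without control replicate 1, control replicate 4 or treated replicate 3, and 1 without treated replicate 1 or 2. It was 0 without the 3 libraries of highest atrial score, a setting that leaves 1 treated library, assumed to vary like the other groups, with Trim54 at -0.41, Fbxo30 at -0.59 and Fbxo40 at -0.46. For treated obese against obese hearts it was 0 under every alternative run. Over all genes, treated obese against control-diet hearts gave 2526 calls with the atrial score and 2690 with a replicate block. There were 2775 of 41491 without the low-count filter, 3417 of 15660 with protein-coding genes only and 3745 of 22544 with the 2 groups alone. The cause of these changes in the member counts was not tested.

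Trim63 also lost its call in obese hearts with the atrial score as a covariate (-0.37, adjusted p = 0.0642) and without the 3 libraries of highest atrial score (-0.41, 0.0608), against -0.44 in the analysis reported. The calls of Fbxo32, Fbxo30 and Fbxo40 in that comparison were lost with library totals and the intronic covariate alone (with the covariate -0.58, -0.34 and -0.085), and that of Trim54 with the intronic covariate alone (-0.53, adjusted p = 0.400). Mstn passed there with library totals (adjusted p = 0.0485) and DESeq2 (0.0496).

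Signs turned as follows. With the intronic covariate, Mstn was -0.60 in obese against control-diet hearts, and Fbxo40 -0.13 and Mstn 0.61 in treated obese against obese hearts. In treated obese against obese hearts Trim55 was also 0.0027 with the atrial score, and Fbxo30 -0.086 without the 3 atrial libraries. Leaving out 1 library in that comparison gave -0.16 to 0.045 for Trim55 (above 0 without obese replicate 1), -0.0080 to 0.17 for Fbxo30 (below 0 without treated replicate 2), -0.014 to 0.17 for Fbxo40 (below 0 without obese replicate 3) and -1.43 to 0.70 for Mstn (above 0 without obese replicate 3, treated replicate 1 or treated replicate 2). In treated obese against control-diet hearts Fbxo32 was 0.27, Trim63 0.15 and Fbxo30 0.019 with library totals, and Mstn -0.51 with the atrial score and -0.21 without the 3 atrial libraries.

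Same-numbered libraries did not deviate together in every pair (correlations -0.024 to 0.122 between obese and control-diet hearts, and 0.399, 0.069 and 0.336 between treated obese and obese hearts), so replicate numbers were not taken as pairs. With a replicate block, 7 members were called in obese against control-diet hearts, Mstn among them (adjusted p = 0.0228, edgeR). Of all 23779 genes, 7112 were called in that setting. In treated obese against control-diet hearts Fbxo30 was then -0.37 (adjusted p = 0.0752), and 2690 genes were called. For the ratios of Trim54 and Trim55 to Trim63, pairing by number leaves the mean differences at -0.57 and 0.85 by construction. Only the p-value can change: the adjusted p was 0.1875 (exact permutation test within pairs), which 4 pairs cannot lower below 0.05. Leaving out 1 library gave differences of -0.64 to -0.51 for Trim54 and 0.81 to 0.89 for Trim55.

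Over all genes, 7166 were called in obese against control-diet hearts and 3760 in treated obese against control-diet hearts. With the intronic covariate these were 121 and 510, and leaving out 1 library gave 4917 to 8153 and 1011 to 4652. With library totals 7300 were called in treated obese against control-diet hearts, and 378 without the 3 atrial libraries, with 1 treated library left. The split in obese hearts was 3429 higher and 3737 lower, against 9061 and 960 with library totals and 4378 and 2926 with upper-quartile scaling. For treated obese against obese hearts DESeq2 called 124 genes, edgeR without obese replicate 3 called 24, and other alternatives 0 to 5. At 9 to 139 counts a library, depth limits the Mstn values more than those of the ligases.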
